A study of Mus musculus with 141 samples.

Results

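Egr1, Egr2, Egr3, Nr4a1, Ier2, Dusp1, Dusp2, Zfp36 and Btg2 are 9 immediate early genes outside the Fos and Jun families. They were taken as a fixed list of symbols, and each matched 1 Ensembl identifier among the 46041 nuclear-encoded genes counted in the series. The list was chosen with earlier results of these data known, so its counts beside the share of all genes are descriptions only. Their transcripts were followed in single cells from the bone marrow of 3 female C57BL/6 mice. The basophil/mast cell progenitors (BMCP) were sorted as live, lineage-negative, cKit-positive, Sca1-negative cells with high integrin beta7 and high CD16/32. The granulocyte/monocyte progenitors (GMP) were sorted as live, lineage-negative, cKit-positive, Sca1-negative, CD34-positive cells with high CD16/32 that lay outside the BMCP gate. No treatment or genotype separates the populations. The deposit holds 94 BMCP and 47 GMP, each cell a library of its own, and the labels do not say which mouse a cell came from. Each population was therefore treated as 1 sample: the values below describe these cells, with no test and no p-value between populations.

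Immediate early genes are transcribed within minutes of a stimulus, from factors already present in the cell, and their short-lived transcripts then decay. The EGR proteins are zinc finger transcription factors and NR4A1 is an orphan nuclear receptor. DUSP1 and DUSP2 are phosphatases that switch off MAP kinases, ZFP36 (tristetraprolin) binds AU-rich elements and sends cytokine transcripts for decay, BTG2 is an antiproliferative partner of the CCR4-NOT deadenylase, and IER2 is a nuclear protein of the early response. In mast cells and basophils such genes are known to be switched on when the IgE receptor or KIT is engaged, and by handling stress in dissociated cells generally.

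After low-quality libraries were left out, 89 BMCP and 41 GMP remained. The kept BMCP were also read as 2 runs of cell numbers, 44 cells numbered 1 to 47 and 45 cells numbered 48 to 94. The labels do not say what a run stands for. A cell held a median of 893037 counts in nuclear genes in BMCP and 1309887 in GMP, and the first run was shallower than the second, at 698384 against 1119896. Levels are CPM, counts scaled to a library total of 1000000, summed over the cells of a group. Intervals are exact Poisson 95% intervals of the summed reads. They leave out the spread between cells, and without molecular identifiers amplified copies count as reads. They are thus narrower than the uncertainty of a level. The sorted identities were borne by their markers: Cpa3, Gata2, Gzmb, Itgb7 and Kit summed to 16986 CPM in BMCP against 1541 in GMP, and Ctsg, Elane, Mpo and Prtn3 to 74.3 and 49086 CPM. BMCP replicate 12 stood apart, with Gzmb at 30.4 CPM and Mpo at 389 CPM, against BMCP medians of 5565 and 4.48 CPM. Replicates 56 and 88 also passed 100 CPM of Mpo, at 146 and 201 CPM. GMP replicates 20, 24 and 30 held the least Mpo, 1038, 509 and 1117 CPM, with over 1000 CPM of Gata2. Their Gzmb was at 0, 2.72 and 0.79 CPM. GMP replicates 3, 8 and 12 stood apart in Egr1, as given with that gene.

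The genes share the early response, and 6 of the 9 had a promoter window in the RefSeq table for GRCm38.p6 (Egr2, Nr4a1, Dusp1, Dusp2, Zfp36 and Btg2). The 250 bases before each listed start were searched on both strands for the serum response factor box called CArG, the cyclic AMP response element TGACGTCA with its core TGACG, the EGR site GCGNGGGCG, the AP-1 site TGANTCA and the TATA box TATAAA. Dusp1 and Btg2 each held a full cyclic AMP response element. It lay 143 to 136 bases before the start of Dusp1 and 166 to 159 bases before that of Btg2. Over all 32851 windows of this length, 1.55% held that element. The core, which each full element contains, was also found before Egr2 and Nr4a1 and in 17.8% of windows. Egr2 has several listed starts; a CArG box, found in 1.47% of windows, lay 72 to 63 bases before the one whose window is printed here, and a separate box before a start further upstream. Zfp36 held a CArG box too, 58 to 49 bases before its start and in annotated exon. The EGR site, which stood in 4.70% of windows, was found before Btg2, Dusp2, Zfp36 and Nr4a1, and the one before Zfp36 lies in annotated exon. Neither the AP-1 site nor TATAAA occurred in the windows of the 6 genes, against 6.75% and 12.4% of all windows. A match is a run of letters, with no measure of binding in these data. The windows of 4 genes follow, 5′ to 3′ on the gene's strand, with annotated exon bases left out and the CArG box, full cyclic AMP response element and EGR site in capitals.
Dusp1, chr17:26508520-26508722, minus strand: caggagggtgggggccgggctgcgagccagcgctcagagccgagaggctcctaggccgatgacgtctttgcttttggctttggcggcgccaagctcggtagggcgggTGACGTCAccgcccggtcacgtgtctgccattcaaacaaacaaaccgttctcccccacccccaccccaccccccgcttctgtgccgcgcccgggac
Btg2, chr1:134079156-134079405, minus strand: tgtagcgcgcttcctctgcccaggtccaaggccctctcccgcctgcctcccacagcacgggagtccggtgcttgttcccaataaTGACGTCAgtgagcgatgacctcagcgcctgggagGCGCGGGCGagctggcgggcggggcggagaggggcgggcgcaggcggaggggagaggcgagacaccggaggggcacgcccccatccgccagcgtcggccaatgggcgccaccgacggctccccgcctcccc
Egr2, chr10:67537619-67537868, plus strand: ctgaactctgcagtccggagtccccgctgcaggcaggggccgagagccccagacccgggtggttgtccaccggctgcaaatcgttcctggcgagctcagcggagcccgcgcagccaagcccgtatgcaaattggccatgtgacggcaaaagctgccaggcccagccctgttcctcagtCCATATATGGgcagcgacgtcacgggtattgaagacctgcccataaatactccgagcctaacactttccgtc
Dusp2, chr2:127335909-127336158, plus strand: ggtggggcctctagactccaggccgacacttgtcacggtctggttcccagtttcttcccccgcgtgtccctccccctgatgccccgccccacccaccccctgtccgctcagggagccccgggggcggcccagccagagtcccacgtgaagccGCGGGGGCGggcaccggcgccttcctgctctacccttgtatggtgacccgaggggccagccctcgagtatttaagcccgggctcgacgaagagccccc
The Dusp1 and Btg2 windows are shown for their full cyclic AMP response element, the Egr2 window for its CArG box, and the Dusp2 window for its EGR site.

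In BMCP, 6 of the 9 genes were at least 2-fold higher than in GMP: Egr1, Egr2, Ier2, Dusp1, Zfp36 and Btg2. Almost all reads of Egr2 came from BMCP replicates 18 and 87. Dusp2 was 0.73 higher on the scale of log2 of (CPM + 1), and Egr3 and Nr4a1 were barely read in either population. None of the 9 was 2-fold lower in BMCP. Among the 14554 genes with at least 1 CPM in either population, 25.8% were at least 2-fold higher in BMCP and 21% at least 2-fold lower. The median of the 9 log2 ratios was 1.47, beside 0.04 over all those genes. When the populations were instead scaled to the spike-in RNA, 4 of the 9 passed 2-fold (Egr1, Egr2, Ier2 and Dusp1), while the median over all genes moved to -0.76. With the spike-in scaling Zfp36 was at 0.62 and Btg2 at 0.26 on the log2 scale. Relative to the shifted median they were at 1.38 and 1.02, against 1.43 and 1.09 relative to the median before scaling. Taking off the shifted median largely undoes the scaling, so these values do not show that the 2 genes pass 2-fold under it. The GMP were 1 block of columns in the deposited table, so anything the block shares and the population cannot be told apart.

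**Figure D1:**
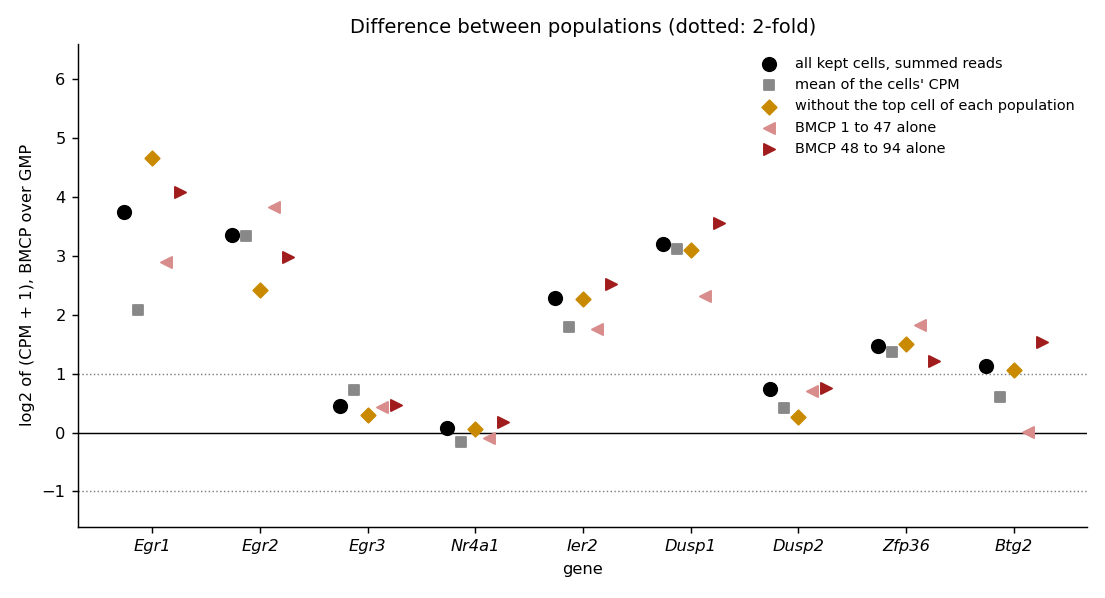
Log2 ratio of (CPM + 1), BMCP over GMP, for each of the 9 genes, from summed reads over all kept cells (black circles) and from 4 other ways of summing or choosing the cells. Points above the upper dotted line are at least 2-fold higher in BMCP; Egr1, Egr2, Ier2, Dusp1 and Zfp36 were above it from summed reads, from the mean of the cells' CPM and in either run alone (Egr2 through 1 cell in each run), while Btg2 moved from 1.13 to 0.61 on the mean of the cells' CPM.

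Egr1 (Ensembl ENSMUSG00000038418, chromosome 18, 34859823 to 34864984, GRCm38) is the founding member of the EGR family and a rapid target of ERK signalling. It stood at 262 CPM in BMCP (interval 259 to 266) and 18.7 CPM in GMP (17.5 to 19.8), a ratio of 14.1, or 3.74 on the log2 scale. Single BMCP ranged from 0 through a median of 10.4 to 3118 CPM in BMCP replicate 51, and 31 of 89 held at least 100 CPM. In GMP the lowest and the median cell were at 0 and the highest, replicate 8, at 1682 CPM, and 32 of 41 cells had no read. The groups overlap at 0, and above 100 CPM GMP has 3 cells. To compare detection at equal depth, cells were thinned to 200000 reads, which left 86 BMCP and 40 GMP, and a gene was called detected at 2 reads. The share with Egr1 was then 51.2% of BMCP (44 cells, exact Clopper-Pearson interval 40.1 to 62.1) and 5% of GMP (2 cells, 0.611 to 16.9). Unthinned, 58 of 89 BMCP and 4 of 41 GMP had it.

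The GMP level of Egr1 came from 3 cells. Replicate 3 gave 61.1% of the GMP reads of Egr1, and without it the GMP level was 7.51 CPM. Replicate 8, a shallow library with 130191 counts and 30.2% spike-in reads, was left out of the thinned cells, and replicate 12 held 128 CPM. Without replicates 3, 8 and 12, which were chosen after their values were seen, 38 GMP held 7 reads of Egr1, or 0.13 CPM. The 3 cells also carried RNA of Gata2, a defining factor of the mast cell and basophil lineages, at 619, 1582 and 274 CPM, against a GMP median of 18.9 CPM. Their Cpa3 was at 4706, 69.1 and 3691 CPM, against a GMP median of 53.8 CPM. Other markers stayed on the side of GMP, with Gzmb at 1.63, 0 and 2.17 CPM and Mpo at 20021, 1943 and 6640 CPM. Gata2 passed 10 thinned reads in 18 of 40 GMP, and both GMP with Egr1 detected were among them, as were 13 of 31 with Ier2, 6 of 11 with Dusp1, 7 of 22 with Dusp2, 2 of 8 with Zfp36 and 7 of 18 with Btg2. Fos, the partner of Jun in AP-1, followed Egr1 in replicates 3 and 8, at 2642 and 13388 CPM, but was at 0 in replicate 12.

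The other EGR genes were rare. Egr2 (ENSMUSG00000037868, chromosome 10, 67535475 to 67542188), which in lymphocytes restrains activation, had 782 reads in BMCP, or 9.28 CPM (8.64 to 9.96), and none among the GMP. These reads set no lower limit on the ratio, because nearly all of them came from 2 cells. In BMCP, 83 of 89 cells and the median cell were at 0, replicate 18 was at 443 CPM and replicate 87 at 355 CPM. These 2 cells gave 98.8% of the reads, and without them the BMCP level was 0.11 CPM. Both also held Egr1, at 753 and 1644 CPM. Egr2 was detected in 3 of 86 thinned BMCP (3.49%) and 4 of 89 unthinned, and all 3 had Egr1. None of 40 thinned GMP had it, which allows a share of up to 7.5%, so the shares do not separate the populations. Egr3 (ENSMUSG00000033730, chromosome 14, 70077203 to 70082614), another EGR factor, had 31 reads in BMCP, which is 0.37 CPM, and none in GMP. Without replicate 50, which gave 12 of those reads, the BMCP level was 0.23 CPM. Its highest cell, replicate 31, held 46.6 CPM, and 83 of 89 BMCP had no read.

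Nr4a1 (ENSMUSG00000023034, chromosome 15, 101254269 to 101274795) was almost unread. It had 11 reads over 3 BMCP, all of the second run, the highest at 4.92 CPM, and 4 reads in 1 GMP, replicate 32, at 8.63 CPM. No thinned cell reached 2 reads, so that 0 of 86 BMCP allows a share of up to 3.49%. The sign of its difference between populations turned from 0.08 on summed reads to -0.16 on the mean of the cells' CPM. Among its relatives, Nr4a2 stood at 15.3 CPM in BMCP against 12.6 in GMP, and at 0.13 and 1.11 CPM once the leading cell of each (BMCP replicate 61, GMP replicate 18) was left out, and Nr4a3 at 0.01 and 0.02 CPM. Of 86 thinned BMCP, 1 had Nr4a2 detected and none Nr4a3.

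Ier2 (ENSMUSG00000053560, chromosome 8, 84661331 to 84662852) was the most widely read of the 9. It stood at 747 CPM in BMCP (741 to 753) and 153 CPM in GMP (149 to 156), a ratio of 4.89. The cells ran from 0 through a median of 403 to 4113 CPM in BMCP, and from 0 through 139 to 814 CPM in GMP. The ranges overlap, while the BMCP median lies above the upper quartile of GMP, 291 CPM. Detection differed less: 84.9% of thinned BMCP (75.5 to 91.7) and 77.5% of thinned GMP (61.5 to 89.2), or 83 of 89 and 34 of 41 without thinning. Its relatives Ier3, an early gene linked to survival, and Ier5 stood at 557 and 46.4 CPM in BMCP and 41.6 and 4.25 CPM in GMP.

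**Figure D2:**
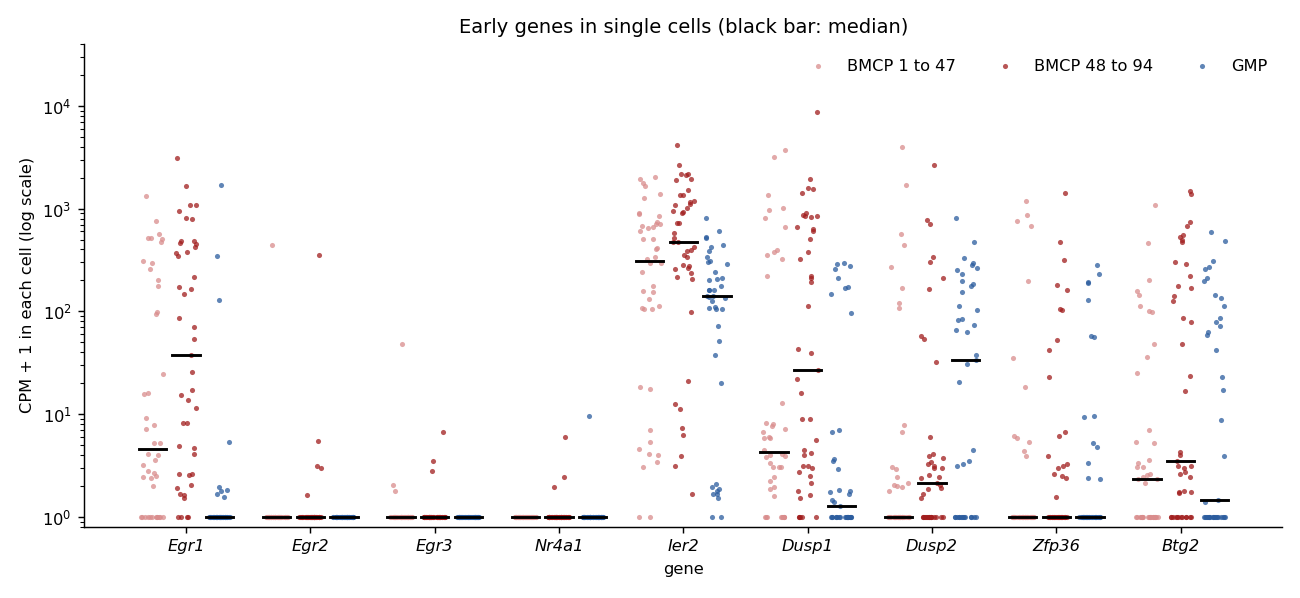
CPM + 1 of each of the 9 genes in every kept cell, on a log axis, for BMCP numbered 1 to 47 (44 cells, light red), BMCP numbered 48 to 94 (45 cells, dark red) and GMP (41 cells, blue); black bars are medians. Ier2 is read in most cells of the 3 groups, Egr1 and Dusp1 in a part of the BMCP and few GMP, and Egr2, Egr3 and Nr4a1 in a few cells only.

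Dusp1 (ENSMUSG00000024190, chromosome 17, 26505590 to 26562128) encodes the MAP kinase phosphatase that favours p38 and JNK. It stood at 422 CPM in BMCP (418 to 427) and 44.9 CPM in GMP (43.1 to 46.7), a ratio of 9.41. BMCP ran from 0 through a median of 5.69 to 8678 CPM in replicate 87, and GMP from 0 through 0.271 to 293 CPM. At least 100 CPM were held by 32 of 89 BMCP and 8 of 41 GMP. Without replicate 87 the BMCP level was 323 CPM. Dusp1 was detected in 46.5% of thinned BMCP (35.7 to 57.6) and 27.5% of thinned GMP (14.6 to 43.9), and in 58 of 89 and 13 of 41 cells without thinning.

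Dusp2 (ENSMUSG00000027368, chromosome 2, 127336159 to 127338376), a nuclear phosphatase induced in activated lymphoid and myeloid cells, gave opposite orders by level and by share. Its summed level was 167 CPM in BMCP (165 to 170) and 100.1 CPM in GMP (97.5 to 103), and 104 CPM in BMCP without replicate 50, which gave 39.6% of the reads. With the spike-in scaling, which lowers all genes alike, its log2 ratio of 0.73 became -0.13, or 0.63 relative to the median of all genes (0.70 before). Detection ran the other way, in 20.9% of thinned BMCP (12.9 to 31) and 55% of thinned GMP (38.5 to 70.7), and in 32 of 89 BMCP and 25 of 41 GMP without thinning. BMCP ran from 0 through a median of 0.66 to 3969 CPM, GMP from 0 through 32.8 to 817 CPM. No order between the populations is read from these values: most BMCP were near 0 and a few were far above any GMP. The ERK phosphatase Dusp6, a relative, stood at 306 and 125 CPM, Dusp5 at 24.9 and 8.09 CPM, and Dusp4 was without reads in both.

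Zfp36 (ENSMUSG00000044786, chromosome 7, 28376784 to 28380253) stood at 75.4 CPM in BMCP (73.5 to 77.3) and 26.5 CPM in GMP (25.2 to 27.9), a ratio of 2.84. The median cell was at 0 in both populations, and the highest held 1417 CPM in BMCP (replicate 79) and 284 CPM in GMP (replicate 33). At least 100 CPM were held by 12 of 89 BMCP and 5 of 41 GMP. The share of thinned cells was close, at 23.3% of BMCP (14.8 to 33.6) and 20% of GMP (9.05 to 35.6), and 27 of 89 and 12 of 41 without thinning. Zfp36 shares 125 exon bases with the antisense gene Gm44710, and strand was not kept, so that those bases cannot be assigned to either gene. The related decay factors Zfp36l1 and Zfp36l2 stood at 30.8 and 84.5 CPM in BMCP and 4.29 and 72.2 CPM in GMP.

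Btg2 (ENSMUSG00000020423, chromosome 1, 134075170 to 134079120) stood at 145 CPM in BMCP (143 to 148) and 66.1 CPM in GMP (64 to 68.3), a ratio of 2.20. BMCP ran from 0 through a median of 1.71 to 1482 CPM, and GMP from 0 through 0.454 to 596 CPM, so that the groups overlap over most of their range. Its share of thinned cells ran against its level, at 34.9% of BMCP (24.9 to 45.9) and 45% of GMP (29.3 to 61.5). Unthinned, the order turned, with 50.6% of BMCP (45 of 89) and 46.3% of GMP (19 of 41), and no order is read from these shares. The ratio fell under 2-fold on the mean of the cells' CPM (0.61 on the log2 scale) and with the spike-in scaling (0.26). Btg1, its closest relative, stood at 101 against 29.6 CPM, and Tob1, of the same family, at 29.3 and 6.63 CPM.

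Levels of different genes were compared per kilobase of exon. In BMCP the order was Ier2 at 491 CPM per kilobase, Dusp1 at 128, Dusp2 at 83.5, Egr1 at 58.5, Btg2 at 53 and Zfp36 at 21.7, with Egr2 at 2.73 and Egr3 and Nr4a1 under 0.1. In GMP, Ier2 at 100 CPM per kilobase was again first, followed by Dusp2 at 50.0, Btg2 at 24.1, Dusp1 at 13.6, Zfp36 at 7.65 and Egr1 at 4.16. Dusp1 and Egr1 thus stood below Dusp2 and Btg2 in GMP, while in BMCP Dusp1 stood above both. Left without its own leading cell, each of the next 3 genes in the BMCP order came to nearly the same level, Dusp2 at 51.7, Egr1 at 47.7 and Btg2 at 45.4 CPM per kilobase, and these neighbours are not separated by the cells.

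Between the runs of BMCP, 3 of the 9 genes were at least 2-fold higher in cells 48 to 94 than in cells 1 to 47 and none was 2-fold lower. That is 3 of 9 where 19.9% of the 13863 genes with at least 1 CPM in either run were that much higher, and 18.4% that much lower. The median of the 9 log2 ratios was 0.27, beside 0.03 over all genes, and a share this close to the background is not read as a property of the 9 genes. Btg2 was at 193 CPM in the second run and 66.2 in the first, 1.53 on the log2 scale. The first-run level was 32.4 CPM without replicate 12, which gave 52.6% of its reads, so the difference was larger without that cell. Dusp1 stood at 540 and 228 CPM, a log2 ratio of 1.24. Without replicate 87 the second run held 382 CPM and the ratio was 0.75, under 2-fold, and on the mean of the cells' CPM it was 0.77. Egr1 stood at 333 and 145 CPM, a log2 ratio of 1.19, and at 0.81, again under 2-fold, without replicate 51. Ier2 was 0.77 higher in the second run, with 884 and 520 CPM.

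The shares of thinned cells went the same way for these genes. Egr1 was detected in 26 of 43 cells of the second run and 18 of 43 of the first, Dusp1 in 25 and 15, Btg2 in 20 and 10, and Ier2 in 39 and 34. Without thinning, the counts were 34 of 45 and 24 of 44 for Egr1, 35 and 23 for Dusp1, and 28 and 17 for Btg2. Dusp2 was detected in 9 cells of each run, at 169 and 164 CPM, and 1 cell decided each level: without replicate 50 the second run held 65.7 CPM, and without replicate 27 the first held 102 CPM. Zfp36 stood at 62.8 CPM in the second run and 96.2 CPM in the first, and was detected in 12 and 8 cells. Its log2 ratio of -0.61 moved to -1.36 without replicate 79 of the second run and to -0.05 without replicate 10 of the first, so that 1 cell of either run decides it. Beside these values, the second run was deeper, its cells had a median of 5723 genes against 4919, and a median of 24.2% of its reads were not aligned against 35.1%. Whether these measures had a part in the differences was not tested. The spike-in share was close, with medians of 11.1% and 11.5%.

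Each run taken alone against GMP gave similar counts. With cells 1 to 47, 5 of the 9 genes were at least 2-fold higher than in GMP, beside 25% of all genes, and with cells 48 to 94, 6 were, beside 24.9%. Both comparisons use the same GMP. Egr2 is counted in each through 1 cell: without replicate 18 the first run had no read of it, and without replicate 87 the second held 0.17 CPM. Btg2 passed 2-fold with the second run only. In cells 1 to 47 it stood at 66.2 CPM, or 32.4 CPM without replicate 12, beside 66.1 CPM in GMP, and its log2 ratio of 0.00 went to -0.44 on the mean of the cells' CPM and to -0.85 without the leading cell of each group. Zfp36 was further from GMP in the first run, at 1.82 on the log2 scale, than in the second, at 1.21.

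A cell could hold several of the genes, but they were not read as a block. The number that the genes' separate shares alone would give was not computed, so the counts below only describe these cells. A thinned BMCP had a median of 3 of the 9 genes detected, 2 in the first run and 3 in the second, and a GMP had 2. No gene was detected in 7 of 43 cells of the first run, 0 of 43 of the second (which allows a share of up to 6.98%) and 1 of 40 GMP. At least 4 genes were detected in 7 of 43, 17 of 43 and 6 of 40 cells. At 10 reads rather than 2, the last counts were 4, 10 and 2. The fullest cell, BMCP replicate 56, had 7 of the 9 genes, with Egr1 at 1078, Ier2 at 1515, Dusp1 at 1932, Dusp2 at 702, Btg2 at 680 and Zfp36 at 159 CPM, and Fos at 10292 CPM. It was also the BMCP with the most counts before thinning, 2416630, and held 146 CPM of Mpo.

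**Figure D3:**
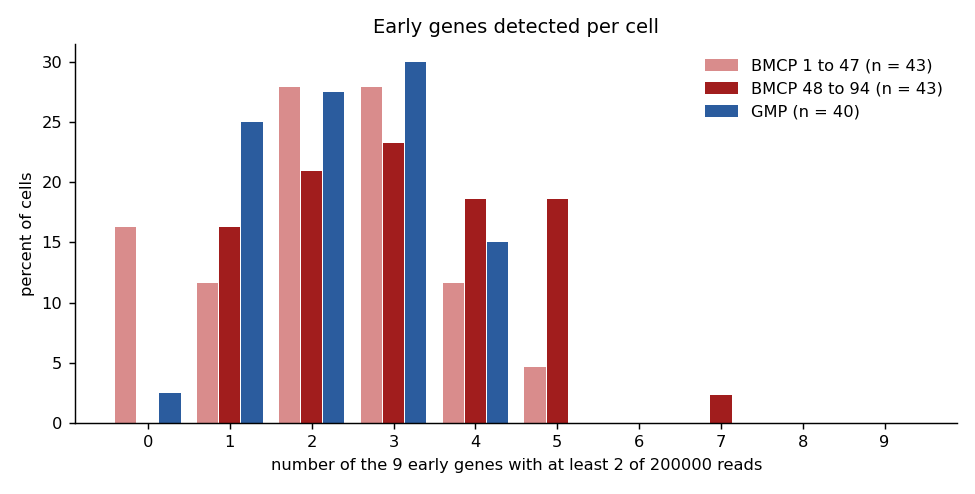
Percent of thinned cells in which 0 to 9 of the genes were detected with at least 2 of 200000 reads, for 43 BMCP of each run and 40 GMP. Cells with 5 or more genes were BMCP: 2 of the first run and 9 of the second, and no GMP.

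Single cells led different genes. Replicate 87 held Dusp1 at 8678 CPM with Egr1, Egr2 and Dusp2, but 2.0 CPM of Zfp36 and of Btg2. Replicate 51 held Egr1 at 3118, Ier2 at 4113 and Btg2 at 1377 CPM, and 2.14 CPM of Dusp2. Replicate 79 held Zfp36 at 1417 and Btg2 at 1482 CPM with Fos at 5816 CPM, and 7.14 CPM of Egr1. Replicate 9 had the highest Dusp2, 3969 CPM, with Dusp1 at 3688 CPM and Zfp36 at 4.79 CPM. Replicate 18, with the highest Egr2, had Dusp1, Dusp2, Zfp36 and Btg2 at 0 and Fos at 1.06 CPM. These cells were named after their values were seen.

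Closeness of pattern was described by Spearman's rho over the 86 thinned BMCP, which share library chemistry and differ in the number of genes read, for the 6 genes detected in at least 20% of them. All 15 pairs lay above 0, from 0.01 to 0.38 with a median of 0.22. By run, 12 of 15 lay above 0 in the first (lowest -0.02, median 0.18) and 15 of 15 in the second (median 0.23). In the 40 GMP, 8 of 15 lay above 0, from -0.28 to 0.32. The 6 genes were admitted by their share in BMCP, and Egr1, which is in the highest GMP pair (with Ier2), was detected in 2 GMP. The counts of pairs are therefore not compared between the populations. The closest pairs in BMCP were Egr1 with Ier2 and Ier2 with Dusp1, both at 0.38, and Dusp1 with Dusp2 at 0.30. Of 40 BMCP with Dusp1 detected, 39 also had Ier2, and of 44 with Egr1, 41 had Ier2. Ier2 was detected in 73 of all 86, so a high overlap is expected from its share alone. Dusp2 and Zfp36 were at 0.01, and both were detected in 2 cells. Dusp1 and Btg2 were at 0.28 over all BMCP, at 0.44 in the second run and at -0.01 in the first. Values this low in sparse counts are descriptions of these cells.

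**Figure D4:**
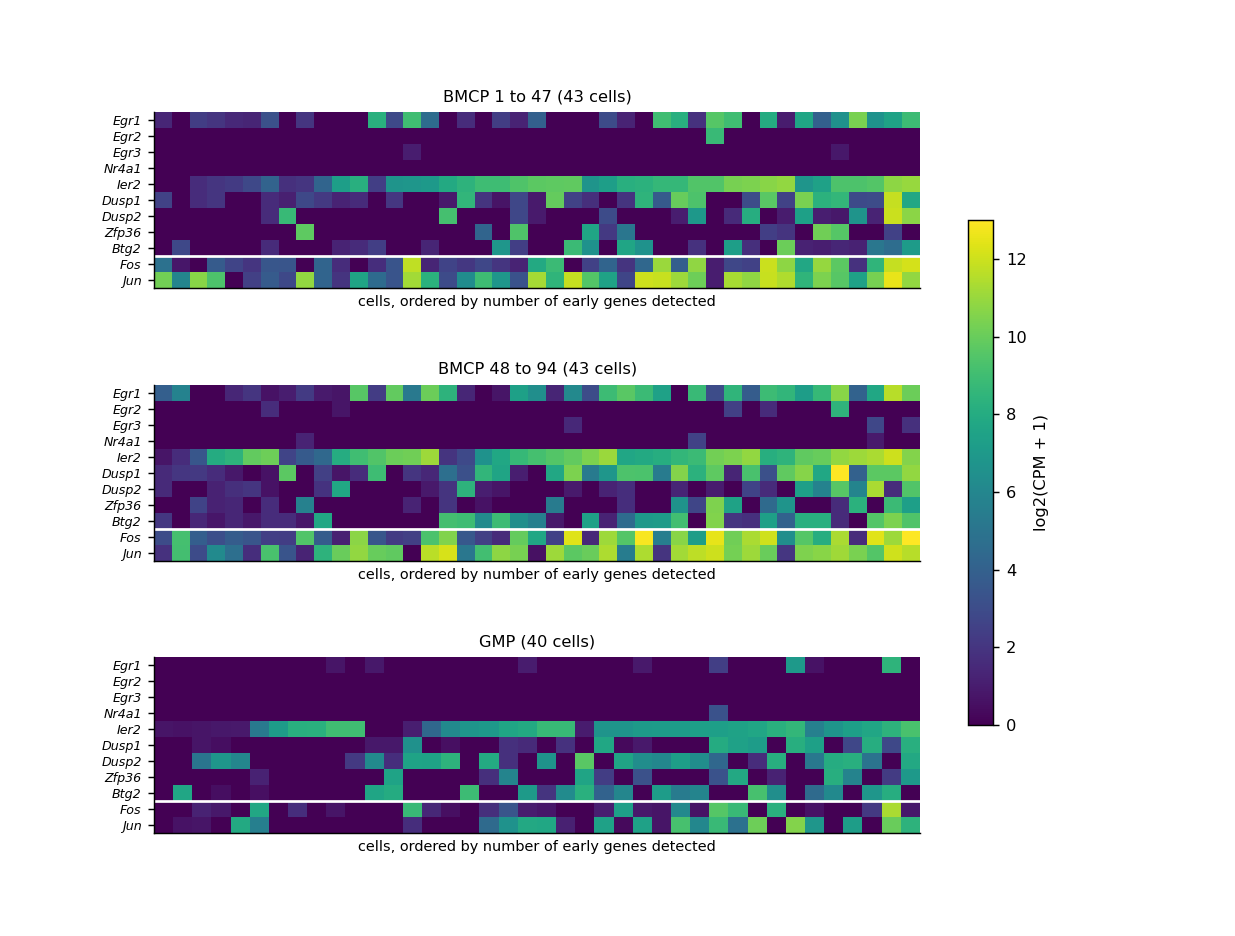
Log2 of (CPM + 1) of the 9 genes, with Fos and Jun below the white line, in each thinned BMCP and GMP (columns), ordered within each group by the number of the 9 genes detected. Ier2 fills most columns, the other genes are bright in different cells, and cells to the right, with more of the 9 genes, tend to be bright in Fos and Jun.

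The gene patterns nearest to the mean of the 9 genes were then ranked over 5869 other genes detected in at least 20% of BMCP. Jun came first at a rho of 0.54 and Fos second at 0.53, both AP-1 subunits, followed by the long noncoding RNA A430046D13Rik and the AP-1 gene Junb, both at 0.49. The next were H3f3b, which encodes histone H3.3, at 0.48, Ssh2, a cofilin phosphatase, at 0.44, Herpud2 and the histone gene Hist1h2ac at 0.41, and Hist1h2ae and the processed pseudogene Gm7676 at 0.40. The 99th percentile over the ranked genes was 0.30. Histone copies and processed pseudogenes share sequence with their relatives, so the reads assigned to them are uncertain. In GMP the same rho was 0.38 for Jun, 0.25 for Fos and 0.36 for Junb, and -0.27 for A430046D13Rik.

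For single genes, the nearest patterns in BMCP differed. Egr1 was nearest to Fos at 0.50 and Junb at 0.48, and Dusp1 to Fos at 0.43 and the noncoding RNA 4930519L02Rik at 0.42. Ier2 was nearest to Rpl26, a ribosomal protein gene, at 0.469 and to Jun at 0.465. Dusp2 stood nearest to Gcn1l1, an activator of the amino acid stress kinase GCN2, at 0.45, and Nsmaf at 0.37. Zfp36 stood nearest to Sipa1, a Rap GTPase activator, at 0.50 and Ndfip1, an adaptor of ubiquitin ligases, at 0.43. Btg2 stood nearest to Herpud2 at 0.49 and Tns3, a tensin, at 0.41. An AP-1 gene was thus among the nearest 2 of Egr1, Ier2 and Dusp1, and not of Dusp2, Zfp36 or Btg2. The 99th percentile over the ranked genes ran from 0.25 for Dusp2 to 0.30 for Ier2. The highest of 5869 values are high in part because they were picked. In GMP the rho of the genes nearest to Egr1, Ier2 and Dusp1 ran from 0.15 to 0.25. That of the genes nearest to Dusp2, Zfp36 and Btg2 ran from -0.19 to 0.06.

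Across BMCP the mean of the 9 genes had a rho of 0.65 with the mean of the AP-1 genes (0.59 and 0.66 by run), and 0.49 in GMP. With the heat shock genes it was 0.35 in BMCP, 0.42 in the first run, 0.12 in the second and 0.00 in GMP. With measures of library quality it was 0.27 for the number of genes read, 0.19 for counts, 0.01 for the spike-in share, -0.02 for the mitochondrial share and -0.13 for the share of reads not aligned. The last turned from -0.26 in the first run to 0.31 in the second. The part of these measures in the closeness was not tested.

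The other genes of the early response were read from lists of named genes, also chosen with earlier results of these data known. Genes with at least 1 CPM in either population were counted. Over all such genes, 25.8% were at least 2-fold higher in BMCP and 21% at least 2-fold lower. Of 6 AP-1 genes, 5 were at least 2-fold higher in BMCP than in GMP and none lower, with a median log2 ratio of 2.80. Fosb, Junb and Fos stood highest at 3.33, 3.27 and 2.82, and Jun, Jund and Fosl2 lowest at 2.78, 1.29 and 0.74. Of 13 relatives of the 9 genes, 7 were higher and none lower, with a median of 1.28, which is above the 0.04 of all genes. Ier3 (3.71), Ier5 (3.18) and Zfp36l1 (2.59) led, and Btg3 (-0.35), Dusp7 (-0.02) and Zfp36l2 (0.22) came last. Of 14 further early genes, 6 were higher and 3 lower, with a median of 0.77. The 3 lower are near the background share and are not read as a property of the list. The NF-kB inhibitor Tnfaip3 led with 90.8 against 1.15 CPM, then the eIF2alpha phosphatase subunit Ppp1r15a with 263 against 7.31 CPM and the factor Klf6 with 495 against 27 CPM. The stress gene Gadd45b was lower, at 14.1 against 55.9 CPM, as were Maff at 0.18 against 5.06 and Trib1 at 0.02 against 3.49 CPM. Left without its leading cell, GMP held 0.37 CPM of Tnfaip3, 4.12 of Ppp1r15a, 16.2 of Klf6, 1.29 of Ier5 and 0.75 of Trib1, and BMCP 4.88 CPM of Gadd45b and 0 of Maff, which moves each of these differences without turning it; that of Trib1 then lies under 2-fold.

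The kinases and factors upstream were read in the same way. Of 18 genes of the MAP kinase and serum response factor pathway, 5 were at least 2-fold higher in BMCP and 2 lower, with a median of -0.01, beside 25.8% and 21% of all genes: shares near or under the background, from which nothing is read about the pathway. The S6 kinase Rps6ka3 (123 against 26 CPM), the SRF partner Elk1 (26 against 6.34) and the kinase Rps6ka5 (39.3 against 13.1) led. Left without its leading cell, Elk1 was at 15.5 CPM in BMCP and 2.06 in GMP, Rps6ka5 at 8.05 in GMP and Mapk8 at 20.8 in BMCP. The JNK kinase Mapk8 (36.8 against 79.5 CPM), Srf itself (11.2 against 24.2) and Mapkapk2 (86.4 against 166) came last. The EGR corepressor Nab2 was at 0.93 against 7.26 CPM and Nab1 at 35.6 against 28.3 CPM, and Rxra, the dimer partner of Nr4a1, at 0.43 against 3.94 CPM, where a single cell gave every GMP read. All 7 CCR4-NOT subunits, with which ZFP36 and BTG2 act, lay within 2-fold, from -0.52 (Cnot8) to 0.97 (Cnot6l) around a median of 0.05. Only a minority of all genes lay past 2-fold, so nothing is read about the subunits from this.

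Transcripts known as targets of ZFP36 were read beside it. Of 11 listed, 6 had at least 1 CPM, and all 6 were at least 2-fold higher in BMCP, beside 25.8% of all genes, with a median of 4.20. Ccl3 was at 73.4 against 1.48 CPM, Il6 at 272 against 10.2, Ccl4 at 179 against 6.90, Il4 at 28.9 against 1.03 and Tnf at 42.5 against 2.40 CPM. Several of these levels rest on 1 cell. Without its leading cell the GMP level of Tnf was 0.02, of Il4 0.26 and of Il6 3.72 CPM, which widens the ratios, and the BMCP level of Ccl3 was 43.2 CPM. Ptgs2, the sixth, was at 1.31 CPM in BMCP, all from replicate 27, and at 0 in GMP. Between the BMCP runs 4 of the 6 were at least 2-fold lower in cells 48 to 94 and none higher, beside the 18.4% of all genes. Ptgs2 is among them through replicate 27 alone, a cell of the first run. The leading cell of Ccl3, replicate 15, is of the first run too, and Ccl4 lay just past 2-fold at -1.06. This count out of 6 is not read as a property of the list. Il6 was detected in 64 of 86 BMCP, against 20 for Zfp36.

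**Figure D5:**
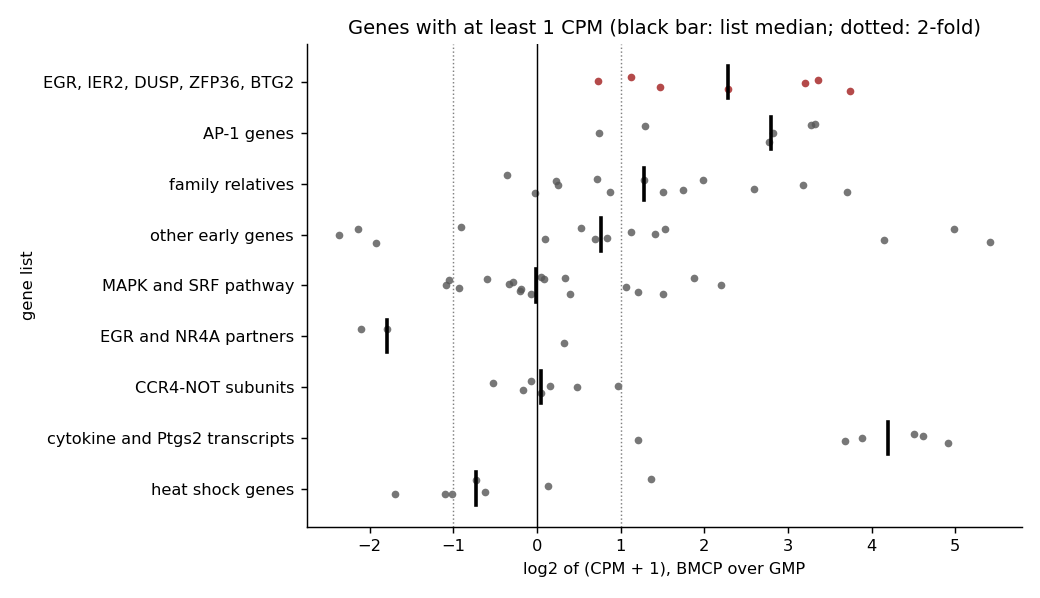
Log2 ratio of (CPM + 1), BMCP over GMP, for every gene with at least 1 CPM in either population, by list; the top row holds 7 of the 9 genes, Egr3 and Nr4a1 lying under that level, and the row of cytokine transcripts holds the listed targets of ZFP36. The AP-1, relative and cytokine rows lie mostly above 0, and the MAP kinase and CCR4-NOT rows are spread around it.

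Heat shock genes were listed as a further stress response. Of 7 with at least 1 CPM, 1 was at least 2-fold higher in BMCP (Dnajb1, 279 against 108 CPM) and 3 were lower (Hspa1a, Hspd1 and Hsph1), with a median of -0.73. Beside 25.8% of all genes higher and 21% lower, counts out of 7 are too few to read as a property of the list. Hspa1a was unread in BMCP; its 2.25 CPM in GMP came from replicate 33 alone. Markers of other blood cells were low beside the sorted identities. Over 6 monocyte and macrophage markers the sum was 13.9 CPM in BMCP (cells from 0 to 541) and 676 CPM in GMP (0 to 2718), and 1 marker had no read in each. Over 6 mature neutrophil markers it was 4.69 and 14.1 CPM, over 5 T cell markers 0.05 and 3.35 (3 and 4 of them unread), over 5 B cell markers 103 and 198, over 5 erythroid markers 93.5 and 21.4, and over 4 megakaryocyte markers 296 and 143 CPM. Their part in the early gene values was not tested.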

How the data were processed

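Single cells were sorted into plates and their polyadenylated RNA was amplified over 23 PCR cycles with spike-in RNA, per the labels' protocols, and read from 1 end over 50 bases without keeping strand. Reads were aligned to mm10 with GSNAP and counted with HTSeq (0.5.3p3), per the submitters' processing notes; which annotation was counted is not stated there. The authors deposited whole-number counts per Ensembl gene, not normalized, in 1 table of 46078 mouse genes, 92 spike-ins and the counter's summary rows. The summary rows stayed out of all totals: over the kept BMCP 17.6% of reads fell in no feature, 3.77% were ambiguous and 30.4% were not aligned, and over the kept GMP 11.1%, 6.03% and 27.5%.

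Symbols, positions and exon lengths came from GENCODE vM21 (GRCm38). Cells needed at least 50000 counts in nuclear genes, 1000 genes, at most 10% mitochondrial and at most 50% spike-in reads, which left out 11 of 141. CPM were taken on nuclear counts, summed per group, with 1 CPM added before log2. Background counts used genes with at least 1 CPM in either group and 2-fold as the call. Detection used cells thinned to 200000 reads (seed 7), leaving 43, 43 and 40 cells, and 2 reads. Shares have exact Clopper-Pearson 95% intervals and a count of 0 is bounded at 3 counts. Closeness used log2 of thinned reads plus 1. No libraries held identical values. No doublet caller was run, since each library is 1 sorted well, and wells holding 2 cells were not looked for. Named were the 9 genes, the highest and lowest 3 of each list with the nearest relatives of the 9, the 10 genes nearest to their mean and the nearest 2 of each gene detected in at least 20% of BMCP; single cells and a few further genes were named after their values were seen. The 9 genes and the lists were chosen with earlier results of these data known. The ratio and ranking steps were tested on simulated counts. Python 3.11.15 with numpy 2.4.6, pandas 2.3.3, scipy 1.17.1 and matplotlib 3.10.9 was used.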

Additional observations from a re-analysis of the deposited data

How the results depend on the processing

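No test was run, so that an alternative can only move a value. The number of the 9 genes at least 2-fold higher in BMCP than in GMP was 6, and lay between 4 (spike-in scaling) and 7 (0.1 CPM added before log2) over all alternatives tried; it was 5 on the mean of the cells' CPM, on thinned reads and with 10 CPM added. The median log2 ratio over the 9 was 1.47, and lay between 0.62 (spike-in scaling) and 2.28 (the 7 genes with at least 1 CPM). For cells 48 to 94 against 1 to 47 the count of 3 lay between 2 (mean of the cells' CPM) and 4 (0.1 CPM added), and the median of 0.27 between 0.04 (10 CPM added) and 0.77 (0.1 CPM added). Leaving out, 1 at a time, each cell with the most reads of a gene gave 5 to 6 genes and a median of 1.14 to 1.84 between populations, and 2 to 4 genes and a median of 0.11 to 0.78 between runs. Between populations Egr2 is counted through BMCP replicates 18 and 87, so leaving out 1 of them does not show how far it rests on both. Without both cells its BMCP level was 0.11 CPM. Without BMCP replicate 12 and GMP replicates 3, 8 and 12, chosen after seeing the data, the counts were 6 and 3 and the medians 1.41 and 0.27; Egr1 then stood at 7.88 on the log2 scale between populations and Btg2 at 2.54 between runs. Without these cells and BMCP replicates 56 and 88 and GMP replicates 20, 24 and 30, also chosen after seeing the data for their Mpo and Gata2, the counts were 5 and 2 and the medians 1.24 and 0.29; Btg2 between populations (0.99) and Egr1 between runs (0.97) were then under 2-fold. The cause of each move was not tested. No paired analysis was possible because the numbers in the labels only name cells and tie no BMCP to a GMP. At this depth 3 reads summed over all kept cells stand for 0.0356 CPM in BMCP and 0.0540 CPM in GMP.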
